A study of Saccharomyces cerevisiae with 4 samples.

Results

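The cytosolic small (40S) ribosomal subunit of budding yeast is built on 18S rRNA from 32 proteins, Rps0 to Rps31. They are encoded by 56 genes, 24 A and B pairs and 8 single-copy genes, and these 56 genes, chosen by name from the 7127 annotated features of the count files, are described here. All 56 were found and all 56 passed the filter on low counts. The small subunit binds the mRNA, scans it for a start codon and holds the decoding centre, while the large (60S) subunit forms peptide bonds. Its proteins can be grouped by place: those of the head line the mRNA entry side and the path of the tRNAs, and those of the body and platform hold the decoding centre, the mRNA exit side and the contacts with the large subunit. Their genes are among the most transcribed of growing yeast. The TORC1 kinase complex, of which Tor1 is one of the alternative catalytic subunits, is known to keep them transcribed while nutrients are plentiful, through the activators Sfp1 and Ifh1 and the kinase Sch9.

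Messenger RNA was sequenced from 2 strains. The wild type was BY4741, a haploid laboratory strain of mating type a in the S288C background with the alleles his3-1, leu2-0, met15-0 and ura3-0. The deletion strain had the same background and alleles and carried YJR066w::kanMX4, the replacement of the TOR1 reading frame by a drug-resistance cassette. Both strains grew to logarithmic phase at 30 °C in minimal medium with 2% dextrose, ammonium sulfate, histidine, leucine, methionine and uracil, and each title carries a time of 4 h. There were 2 libraries per strain, and nothing in the labels says whether they came from separate cultures or from more than 1 clone. The p-values here thus reflect how far 2 libraries of a strain lie apart, and part or all of that may be technical. For each gene or pair this spread was moderated by that of all features or pairs tested. The comparison asks what loss of TOR1 does to the transcriptome.

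Total counts were 14446057 and 9623963 in wild-type libraries 1 and 2 and 8060480 and 10244377 in deletion libraries 1 and 2. TOR1 itself had 635 and 357 counts in the wild type against 0 and 1 in the deletion. The 6 marker genes of mating type a gave no call between the strains, and the 4 markers of mating type alpha had 1.29 to 27.6 CPM (counts scaled by library size). Of these 4, MF(ALPHA)1 (log2 fold change -1.65) and STE3 (-1.46) were called lower. Of the 4 meiotic genes, NDT80 and DIT1 fell and the other two were not called. The replicates of the wild type correlated at 0.993 across genes on the log2 CPM scale and those of the deletion at 0.975, and genes are not independent replicates.

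The mRNAs of the small subunit took 8.68% and 8.56% of all counts in the wild-type libraries against 2.47% and 2.06% in the deletion libraries. Every one of the 56 genes was lower in both deletion libraries than in both wild-type libraries. All 56 fell at an adjusted p below 0.05 (edgeR quasi-likelihood F test, Benjamini-Hochberg adjustment over all 6197 features tested), with adjusted p from 0.000215 to 0.0173. Across all features tested, 24.9% were called lower, 51.8% were called in either direction, and 40.2% were lower in both deletion libraries than in both wild-type libraries. The median log2 fold change, deletion over wild type, was -1.67 over the 56 genes, with a range from -3.00 to -0.82, against -0.02 over all features tested. As linear folds the genes fell 1.77-fold to 7.98-fold, and the SE of the log2 values ran from 0.18 to 0.43. Counts give the share of a library that a gene takes, and a bulk sample cannot tell less mRNA per cell from fewer cells that make it. Scaling by library totals in place of TMM factors moved the median of all features to -0.35 and that of the 56 genes to -1.999. Relative to the median of all features the 56 genes stood at -1.65 under both.

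The fall was shared by every class of member. The A copies had a median log2 fold change of -1.55, the B copies of -1.96 and the single-copy genes of -1.65. The 22 genes of head proteins had a median of -1.70 and the 34 genes of body and platform proteins one of -1.66. The 24 genes of proteins that bacteria also have (uS names) had a median of -1.69, and the 32 genes of proteins found in eukaryotes or archaea but not in bacteria (eS names) one of -1.67. The 36 genes with an intron in the coding sequence had a median of -1.70 and the 20 without one a median of -1.64. Across the 56 genes Spearman's rho of the log2 fold change was 0.19 with the wild-type level per kb and 0.06 with the coding length, given as a description since all points share the same 4 libraries. The large-subunit genes moved likewise: 79 of 81 fell, with a median of -1.77, and RPL15B at -0.36 and RPL41A at -0.40 were not called.

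The promoters of ribosomal protein genes are known for sites of Rap1, a general activator that recruits Fhl1 and Ifh1 to them, and in fewer genes of Abf1. A Rap1-type string, ACCCNNACA on either strand, stood within the 500 bases before the start codon in 18 of the 56 genes (32.1%), in 44.4% of the 81 large-subunit genes and in 5.47% of all 6000 coding genes searched. A longer form, with a further C before it, was searched first and stood in 11 of the 56 (19.6%), in 22.2% of large-subunit genes and in 2.22% of all. The shorter form was taken after those shares had been seen, and every match of the longer form among the 56 is also one of the shorter. Matches of 6 genes are printed, chosen by hand after their values were seen, to show the string in both copies of a pair, in single-copy genes and in A copies whose partner has no match. The strand of the gene is read from 5′ to 3′, and capitals mark the 9 letters of the string. The stretches come from the R64 assembly, the sequence of RPS0A being cut at the edge of the window searched.

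RPS2, chrVII:277209-277257, plus strand, 380 bases before the start codon: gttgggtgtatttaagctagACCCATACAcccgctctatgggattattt
RPS13, chrIV:579208-579256, plus strand, 222 bases before: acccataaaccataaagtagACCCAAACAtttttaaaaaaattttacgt
RPS0A, chrVII:920075-920120, plus strand, 475 bases before: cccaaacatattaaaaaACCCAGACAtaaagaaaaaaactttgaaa
RPS1A, chrXII:1019125-1019173, minus strand, 237 bases before: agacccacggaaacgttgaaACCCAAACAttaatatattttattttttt
RPS16A, chrXIII:551601-551649, plus strand, 299 bases before: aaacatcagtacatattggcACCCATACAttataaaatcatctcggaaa
RPS16B, chrIV:308123-308171, minus strand, 354 bases before: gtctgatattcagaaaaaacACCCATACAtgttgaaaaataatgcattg

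Genes with and without a match had close medians. The median log2 fold change was -1.64 over the 18 genes with the shorter string and -1.70 over the 38 without it, and for the longer string it was -1.73 over 11 genes and -1.65 over 45, so the order of the medians turned with the letters chosen. An Abf1-type string, TC and ACG with 7 free letters between them, stood before 42.9% of the 56 genes and 46.1% of all coding genes. The stress response element AGGGG, which the general stress factors Msn2 and Msn4 bind, stood before 23.2% of the 56 and 34.1% of all coding genes. No Rap1-type match shared bases with a match of the other strings, and in 1 gene an Abf1-type match overlapped a stress element. These matches are letters in a window, not measured binding, and the lack of a match does not show the lack of a site.

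The 8 single-copy genes have no A or B partner, and every 100-base window of their coding sequences occurs once in the genome. Their log2 fold changes lay between -2.08 and -1.60. Levels between genes are given as CPM per kb of coding sequence, and levels between libraries as TMM-normalised CPM.

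RPS31 (YLR167W, chrXII:498947-499405), which is made as a fusion of ubiquitin with a head protein, was the most abundant member in the wild type at 16100 CPM per kb, level with RPS26A at 16083 CPM per kb. Its level was 7655 and 7125 CPM in the wild-type libraries and 2672 and 2204 CPM in the deletion libraries. The groups lay well apart, and the log2 fold change was -1.60 (SE 0.26, edgeR adjusted p = 0.00246).

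RPS12 (YOR369C, chrXV:1028194-1028625) encodes a protein of the beak of the head. It had 4289 and 4382 CPM in the wild type and 1629 and 1112 CPM in the deletion, with a log2 fold change of -1.66 (SE 0.27). The wild-type libraries lay close together and deletion library 2 was the lowest, as it was for most members: 54 of the 56 genes were lower in deletion library 2 than in deletion library 1. RPS20 (YHL015W, chrVIII:75412-75777), a head protein that the ubiquitin ligase Hel2 marks on collided ribosomes, had 3307 and 3674 CPM against 1379 and 925 CPM, with a log2 fold change of -1.60 (SE 0.27).

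RPS3 (YNL178W, chrXIV:302680-303402), which lines the mRNA entry channel, had 2371 and 2342 CPM in the wild type and 630 and 515 CPM in the deletion. It fell 4.12-fold, a log2 fold change of -2.04 (SE 0.22, edgeR adjusted p = 0.000607).

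RPS15 (YOL040C, chrXV:253149-253577), a head protein needed for export of the precursor subunit from the nucleus, had 1458 and 1724 CPM in the wild type and 529 and 382 CPM in the deletion. RPS2 (YGL123W, chrVII:277617-278381), a body protein near the mRNA entry site, had 1359 and 1530 CPM against 536 and 387 CPM. RPS13 (YDR064W, chrIV:579458-580452), a body protein that contacts the large subunit and the one gene of the 8 with an intron in its coding sequence, had 1024 and 1151 CPM against 337 and 179 CPM. RPS13 fell most among the single-copy genes, 4.21-fold. Its SE, 0.32 on the log2 scale, was also the largest of the 8, with deletion library 1 near 337 CPM and library 2 near 179 CPM.

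**Figure D1:**
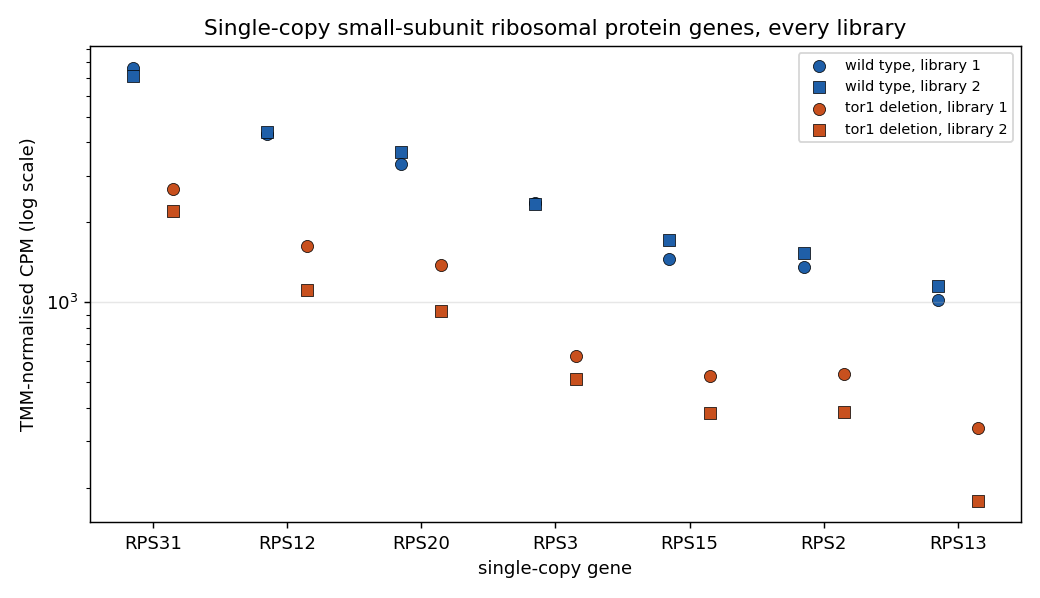
TMM-normalised CPM (log scale) of 7 of the single-copy small-subunit genes in every library, with circles for library 1 and squares for library 2 of each strain. For each gene both deletion libraries sit below both wild-type libraries, from 7655 and 7125 against 2672 and 2204 CPM for RPS31 to 1024 and 1151 against 337 and 179 CPM for RPS13.

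The largest falls were those of RPS22A, RPS26B, RPS28B and RPS10B. RPS22A is described with its pair below. RPS26B (YER131W, chrV:423952-424311), the rare copy of a protein at the mRNA exit channel, had 593 and 729 CPM in the wild type and 167 and 83.2 CPM in the deletion, a 5.29-fold fall. RPS28B (YLR264W, chrXII:673131-673334), the rare copy of a protein known to bind its own mRNA and speed its decay, had 208 and 173 CPM against 39.5 and 33.1 CPM. That fall was 5.25-fold and had the smallest adjusted p of the 56 genes, 0.000215 by edgeR. RPS10B (YMR230W, chrXIII:732414-733141), a copy of a head protein near the mRNA entry, had 1544 and 1366 CPM against 336 and 230 CPM, a 5.14-fold fall.

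The smallest falls were those of RPS25B, RPS23A, RPS29B and RPS30A. RPS25B (YLR333C, chrXII:795573-795899), a copy of a head protein needed for initiation on internal entry sites, had 1018 and 948 CPM in the wild type and 586 and 525 CPM in the deletion. RPS23A (YGR118W, chrVII:726974-727730), the larger copy of a decoding-centre protein that sets accuracy, had 2857 and 2203 CPM against 1259 and 1430 CPM. Both genes lost the call when either wild-type library was left out. Without library 1 the log2 fold change was -0.76 for RPS25B and -0.71 for RPS23A, and without library 2 it was -0.87 and -1.08. RPS29B and RPS30A lost the call without wild-type library 2 (log2 fold changes -0.94 and -0.74). RPS25A and RPS26A lost it without wild-type library 1 (-1.01 and -0.95). In these fits fewer of all features were called lower as well. The groups of all 6 genes did not overlap, as was so for all 56 genes and, in the lower direction, for 40.2% of all features tested.

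RPS6A (YPL090C, chrXVI:377291-378395) and RPS6B (YBR181C, chrII:591712-592774) encode the body protein whose C-terminal tail is phosphorylated under TORC1 by the kinase Ypk3. RPS6A had 547 and 735 CPM in the wild type and 257 and 227 CPM in the deletion. RPS6B had 286 and 413 CPM against 139 and 108 CPM. Their log2 fold changes were -1.40 (SE 0.22) and -1.50 (SE 0.24). Phosphorylation was not measured, and YPK3 mRNA was not called at 0.12 (SE 0.20). The remaining 29 of the 56 genes had log2 fold changes between -2.32 and -1.15, with edgeR adjusted p of at most 0.0109.

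**Figure D2:**
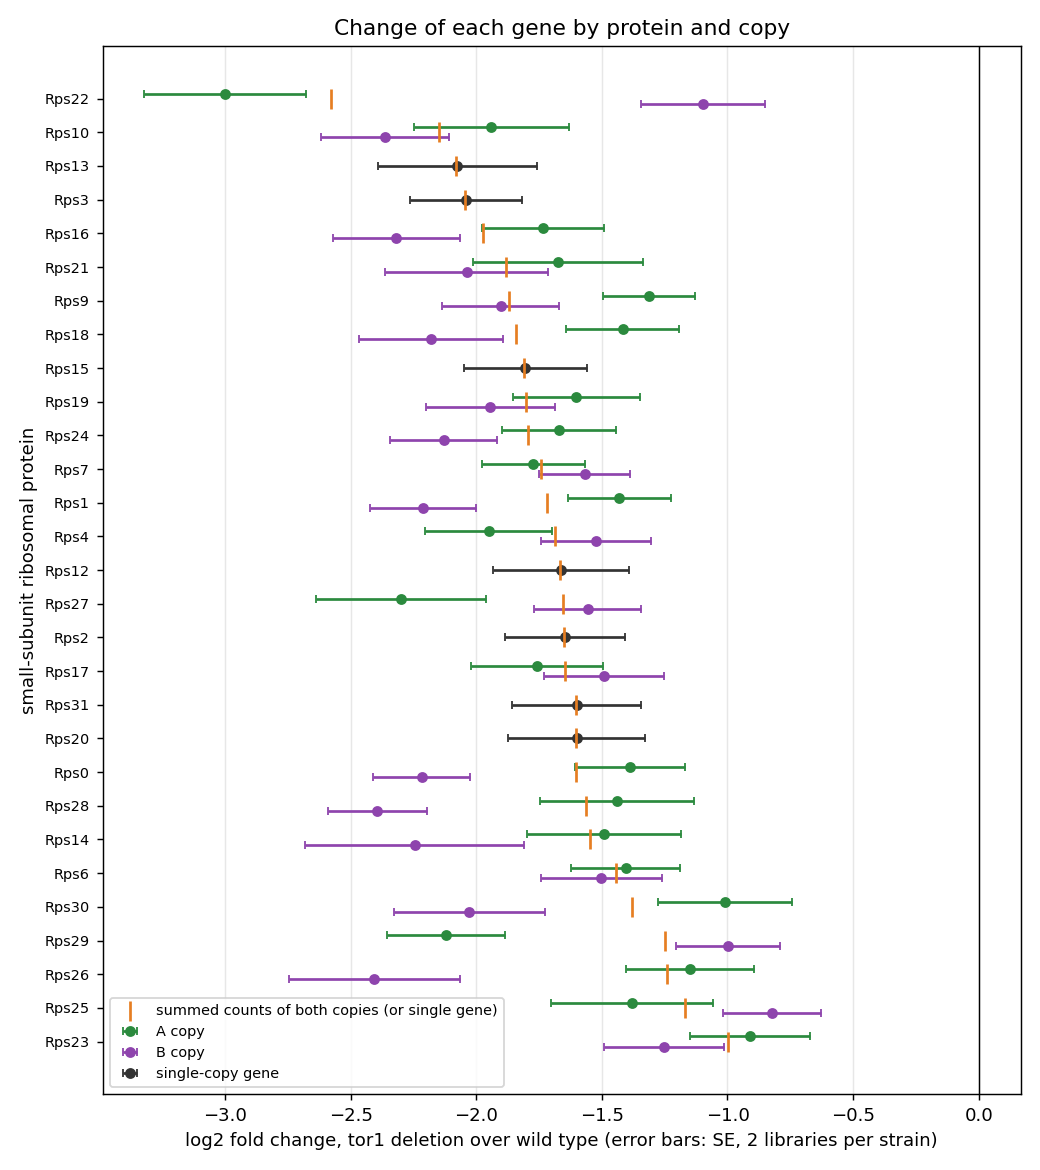
Log2 fold change, tor1 deletion over wild type, of the genes of 29 small-subunit proteins (points, error bars SE, 2 libraries per strain), with proteins in rows by the change of their summed counts (orange bars). All points lie left of 0, between -3.00 for RPS22A and -0.82 for RPS25B, and the copies of Rps22, Rps26, Rps29 and Rps30 are the farthest apart in their rows.

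Adding the counts of both copies gives a value per protein that does not depend on how reads were divided between them. The sum still depends on whether reads that match both copies were counted, which the sources do not give. By these sums all 32 proteins fell, with log2 fold changes from -2.58 for Rps22 to -0.998 for Rps23 and quartiles of -1.82, -1.65 and -1.56. Rps10 (-2.15), Rps13 (-2.08) and Rps3 (-2.05) followed Rps22 at the low end. Rps23, Rps25 (-1.17), Rps26 (-1.24) and Rps29 (-1.25) fell least. The middle proteins of that order were close together, and the SE of a single protein ran from 0.21 for Rps7 to 0.34 for Rps21. Differences between proteins were not tested. The order of gene levels was much the same in both strains: across the 56 genes Spearman's rho between the mean CPM per kb of the wild type and of the deletion was 0.93. In the wild type the summed level ran from 1395 CPM per kb for Rps6 to 17945 CPM per kb for Rps26, although each protein takes 1 place per subunit. In the deletion it ran from 492 CPM per kb for Rps9 to 7586 CPM per kb for Rps26. Of the windows of the RPS6A coding sequence, 46.2% occur once in the genome. How far uncounted reads lower the summed level of Rps6 was not tested.

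**Figure D3:**
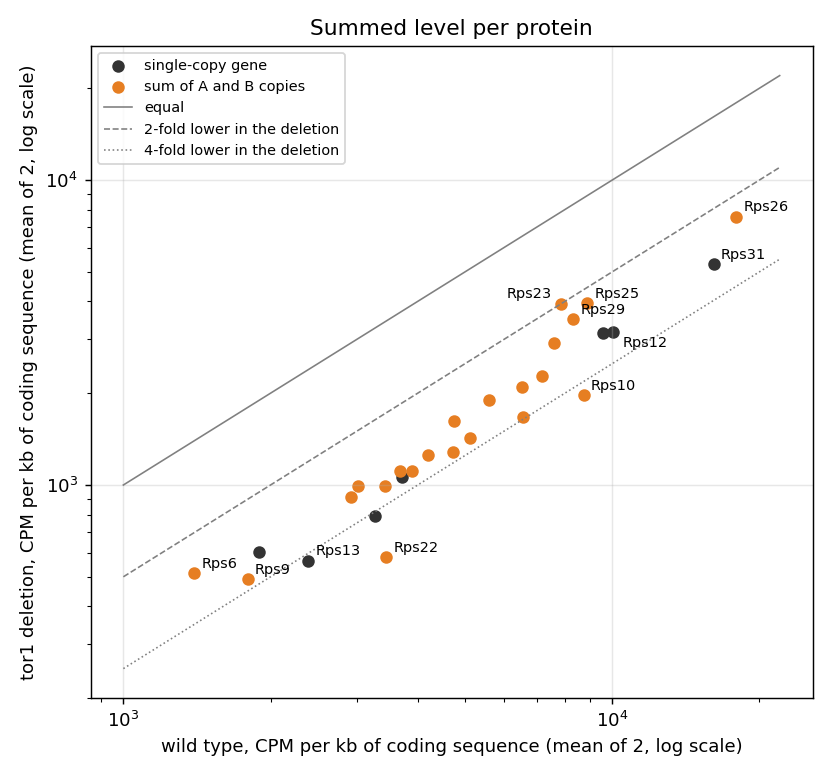
Summed CPM per kb of coding sequence for 29 of the small-subunit proteins, wild type against tor1 deletion, both axes logarithmic, means of 2 libraries, with lines at equal level and at 2-fold and 4-fold lower in the deletion. The points run from Rps6 (1395 CPM per kb in the wild type) to Rps26 (17945), all lie below the line of equality, and Rps22, Rps10, Rps13 and Rps3 lie below the 4-fold line. The level of Rps6 depends on whether reads that match both copies were counted, which the sources do not give.

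Most A and B pairs stem from an ancient duplication of the yeast genome, and their copies encode the same or nearly the same protein from separate loci, each with its own promoter. Their coding sequences were 84.3% to 99.2% identical, and 9 pairs encode identical proteins. The A copy was the larger in 16 of the 24 pairs in the wild type and the B copy in 8. The minor copy was as low as 5.22% of its pair for RPS9A, the least abundant member at 93.2 CPM per kb in the wild type, with 53.7 and 57.0 CPM there and 23.3 and 21.4 CPM in the deletion.

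Whether the copies of a pair responded differently was tested on the A to B count ratio within each library, which no library scaling can move (limma over 485 paralog pairs of the genome, Benjamini-Hochberg adjustment over the 485). The ratio differed between the strains in 10 of the 24 pairs, 41.7%, against 49.7% of all 485 pairs, so the small-subunit pairs were not set apart from other paralogs by this count. When only the 61 pairs that gene names give were tested, 8 of the 24 and 18 of the 61 were called. The small-subunit share was then slightly the higher, so the order of the shares depended on the pairs compared. The median absolute change of the log2 ratio was 0.59 over the 24 pairs and 0.76 over all 485. Among the 10 pairs the B copy fell more in 8, and among all 24 in 16. The copy that was minor in the wild type fell more in 8 of the 10 and in 14 of the 24. Neither direction was counted over all 485 pairs. The median A to B ratio rose from 1.46 in both wild-type libraries to 1.86 and 1.77 in the deletion libraries.

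**Figure D4:**
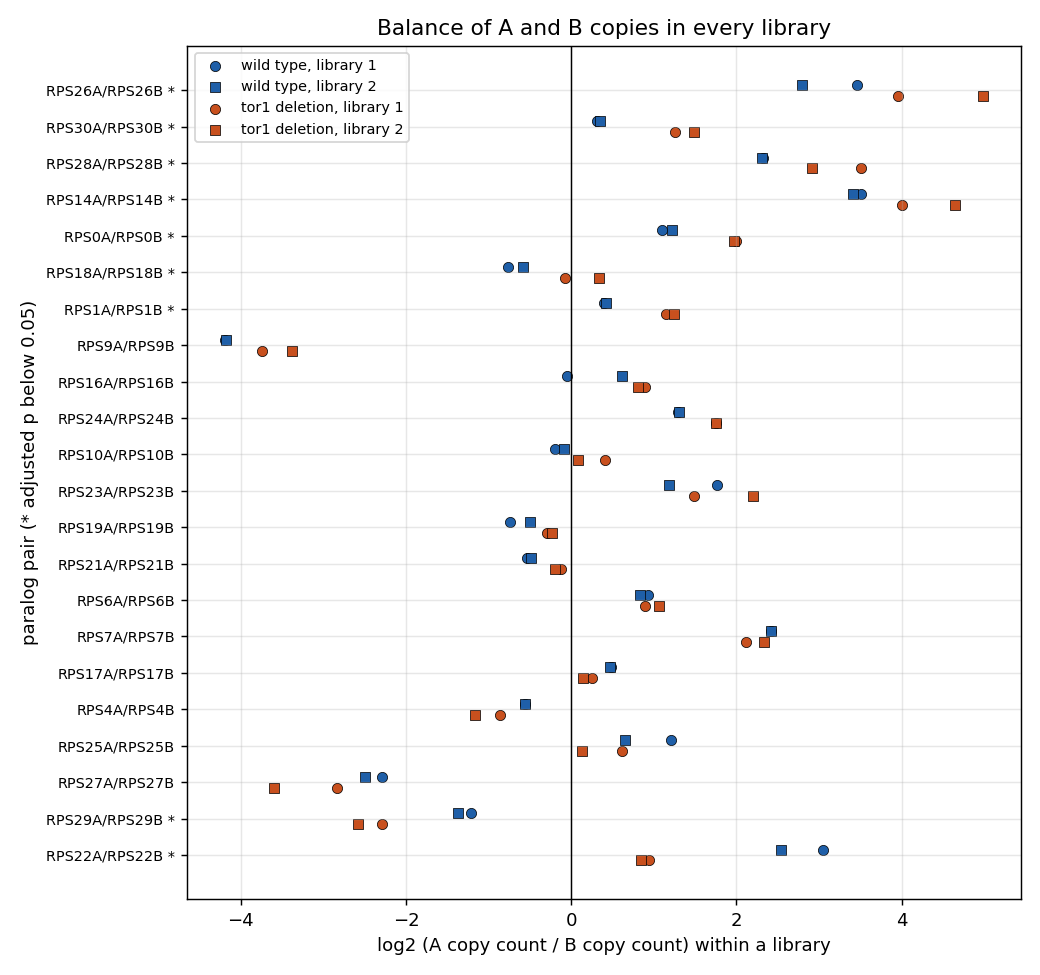
Log2 ratio of A copy to B copy counts within each library for 22 of the pairs, ordered by the change of the ratio, with circles for library 1 and squares for library 2. In the 9 pairs marked with an asterisk (adjusted p below 0.05 over 485 pairs) the strains lie apart, with RPS22 moving down from ratios of 8.26 and 5.82 to 1.92 and 1.80, and RPS26 and RPS30 moving up the most.

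RPS22A and RPS22B encode Rps22, a body protein of the uS8 family that binds the central part of 18S rRNA. RPS22A (YJL190C, chrX:74910-75302, no intron) had 1358 and 1012 CPM in the wild type and 188 and 109 CPM in the deletion, the largest fall of the 56 genes. RPS22B (YLR367W, chrXII:856442-857317, 1 intron in the coding sequence) had 164 and 174 CPM against 97.8 and 60.6 CPM. The A copy made up 89.2% and 85.3% of the pair in the wild type against 65.8% and 64.3% in the deletion. The log2 ratio fell by 1.90 (SE 0.22, 95% interval -2.48 to -1.32, limma adjusted p = 0.00276), and RPS22A stayed the larger copy in every library.

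Every 100-base window of the RPS22A coding sequence occurs once in the genome, so a read of that length can be assigned to a copy. Shorter reads were not examined. The proteins are 99.2% identical, but the coding sequences differ at 41 of 393 positions, and 15 of these lie in the first 120 bases, shown here from the start codon with the differing bases in capitals (R64, strand of the gene). The stretch was chosen after the values had been seen.

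RPS22A, chrX:75183-75302, minus strand: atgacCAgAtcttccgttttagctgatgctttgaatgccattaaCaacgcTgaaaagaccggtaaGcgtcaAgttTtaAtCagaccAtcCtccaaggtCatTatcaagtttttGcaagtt
RPS22B, chrXII:856442-856561, plus strand: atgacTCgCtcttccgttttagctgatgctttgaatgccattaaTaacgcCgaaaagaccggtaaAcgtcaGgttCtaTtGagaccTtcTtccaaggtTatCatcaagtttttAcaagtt

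The small nucleolar RNA gene SNR44 lies within the bounds of RPS22B on the same strand, and it is a separate feature of the count files with 158 and 94 counts in the wild type against 21 and 30 in the deletion. RPS22A ends 298 bases from RPS14B, which faces it on chromosome X, and both genes fell. Whether strand was used in counting is not given in the sources, so reads beyond the end of either gene cannot be told from those of its neighbour.

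RPS30A (YLR287C-A, chrXII:712537-713158) and RPS30B (YOR182C, chrXV:678191-678793) encode identical copies of a small basic protein of the body. RPS30A had 677 and 946 CPM in the wild type and 477 and 330 CPM in the deletion, and RPS30B had 546 and 743 CPM against 199 and 118 CPM. The A to B ratio was 1.24 and 1.27 in the wild type against 2.40 and 2.80 in the deletion. These ratios were tight within each strain, and the log2 ratio rose by 1.05 (SE 0.16, 95% interval 0.63 to 1.47, limma adjusted p = 0.0063).

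RPS29A (YLR388W, chrXII:898651-898821) and RPS29B (YDL061C, chrIV:340628-340798) encode a zinc-binding head protein, and their products are 91.1% identical. RPS29A, the minor copy, had 419 and 405 CPM in the wild type and 114 and 75.6 CPM in the deletion. RPS29B had 970 and 1047 CPM against 557 and 452 CPM. The A copy went from 30.2% and 27.9% of the pair to 17.0% and 14.3%, a change of -1.14 in the log2 ratio (SE 0.18, limma adjusted p = 0.00672). RPS22 and RPS29 were the pairs among the 10 in which the A copy fell more.

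RPS0A (YGR214W, chrVII:920575-921788) and RPS0B (YLR048W, chrXII:242232-243349) encode a protein between body and head that is needed for the last cleavage of 18S rRNA. RPS0A had 1435 and 1724 CPM in the wild type and 650 and 556 CPM in the deletion, and RPS0B had 671 and 742 CPM against 162 and 142 CPM. The ratio was 2.14 and 2.33 in the wild type against 4.00 and 3.93 in the deletion. The log2 ratio rose by 0.83 (SE 0.15, limma adjusted p = 0.0102).

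RPS1A (YLR441C, chrXII:1018141-1018908) and RPS1B (YML063W, chrXIII:146482-147249) encode a platform protein near the mRNA exit. RPS1A had 1600 and 1618 CPM in the wild type and 638 and 556 CPM in the deletion, and RPS1B had 1213 and 1204 CPM against 288 and 234 CPM. The copies went from ratios of 1.32 and 1.34 to 2.22 and 2.38, and the log2 ratio rose by 0.79 (SE 0.15, limma adjusted p = 0.0115).

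The sources do not give how reads that match both copies of a pair were counted. This leaves the ratios of RPS6, RPS24 and RPS4 uncertain, where 46.2%, 82.5% and 86.8% of the 100-base windows of the A copy occur once in the genome. In all, 4 of the 24 pairs had under 90% of such windows, and 1 of these 4 was among the 10 pairs called. Whether reads shorter than 100 bases would match both copies of other pairs was not tested.

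RPS18A (YDR450W, chrIV:1359923-1360798) and RPS18B (YML026C, chrXIII:222987-223828) encode identical copies of a head protein that contacts the large subunit. RPS18A had 760 and 982 CPM in the wild type and 361 and 291 CPM in the deletion, and RPS18B, the larger copy of the wild type, had 1292 and 1470 CPM against 381 and 229 CPM. The ratio was 0.588 and 0.668 in the wild type against 0.949 and 1.27 in the deletion. The copies were thus near parity in the deletion, with B still larger in library 1 and A in library 2. The log2 ratio rose by 0.81 (SE 0.21, limma adjusted p = 0.026).

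RPS28A (YOR167C, chrXV:648804-649007) had 1041 and 860 CPM in the wild type and 452 and 250 CPM in the deletion. With the RPS28B values above, the A to B ratio was 5.01 and 4.96 in the wild type against 11.4 and 7.53 in the deletion, a rise of 0.90 in the log2 ratio (SE 0.25, limma adjusted p = 0.0333). RPS14, a platform protein that is known to hold back splicing of the RPS14B transcript, and RPS26 were the last pairs past the threshold. The RPS14 ratio was 11.4 and 10.7 in the wild type against 16.0 and 25.02 in the deletion, and that of RPS26 was 11.0 and 6.96 against 15.5 and 31.6. The deletion libraries of both pairs lay wide apart, and the limma adjusted p was 0.0452 for each.

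The other 14 pairs were not called. RPS27 had the largest change among them, -0.82 in the log2 ratio (95% interval -1.58 to -0.07, limma adjusted p = 0.0695), and the RPS9 change was 0.61 (interval 0.05 to 1.17, adjusted p = 0.0689). RPS24 narrowly missed the threshold, with ratios of 2.45 and 2.46 against 3.37 and 3.38 (adjusted p = 0.0552). The RPS6 copies kept close ratios, 1.91 and 1.78 in the wild type against 1.86 and 2.09 in the deletion, and the change was 0.10 with an interval of -0.32 to 0.51. In the RPS23 pair too the strains overlapped, with a change of 0.37 (interval -0.47 to 1.21). In all, 21 of the 24 pairs (87.5%) had ratios that did not overlap between strains, against 77.1% of all 485 pairs.

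With 2 libraries a strain the pair calls depended on single libraries. Leaving out wild-type library 1 left 4 pairs called (RPS22, RPS26, RPS29 and RPS30), and leaving out wild-type library 2 left 7, of which 6 were among the 10. Leaving out either deletion library gave more calls than the fit with all libraries. The calls over all 485 pairs moved in the same way, with fewer without a wild-type library and more without a deletion library. RPS22, RPS29 and RPS30 were called under all 10 alternatives tried.

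Of 17 regulators of ribosomal protein gene transcription, 3 fell, 5 rose and 9 were not called, with a median of 0.01. The share called was 47.1% and the share called lower 17.6%, against 51.8% and 24.9% of all features, so these counts do not set the list apart. SFP1, an activator of ribosomal protein genes, rose by 1.20 on the log2 scale, although with 35.05 and 81.8 CPM its deletion libraries were far apart and its wild-type libraries stood at 25.2 and 26.0 CPM. SCH9, the TORC1 effector kinase, rose by 1.30. STB3 and DOT6, repressors of ribosome synthesis genes, rose by 1.63 and 1.47, while TOD6, a relative of DOT6, fell by 0.67 on that scale. CKA2, a casein kinase subunit, rose by 0.70. IFH1, the coactivator at Rap1-bound promoters, fell by 0.63 on the log2 scale from 39.9 and 38.2 CPM to 22.1 and 28.4 CPM. UTP22, a processing factor that also binds Ifh1, fell by 2.01. The mRNAs of RAP1 (0.05, SE 0.18), FHL1 (-0.81, SE 0.32), HMO1 and ABF1 were not called.

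Of 10 partners of small-subunit proteins, 5 fell, none rose and 5 were not called, and their median was -0.77. The share called was 50%, near the 51.8% of all features, and the share called lower was also 50%, against 24.9%. ASC1, which encodes the scaffold protein bound to the head of the small subunit, fell by 1.63 on the log2 scale from 557 and 638 CPM to 225 and 161 CPM. TSR2, the chaperone of Rps26, fell by 1.78, and YAR1, that of Rps3, fell by 0.98. FAP7, a partner of Rps14, fell by 0.89, and HEL2, the ligase for Rps20 and Rps3, fell by 1.19.

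Of 9 factors of cytoplasmic small-subunit maturation, 5 fell, 2 rose and 2 were not called, with a median of -0.76. The share called was 77.8% and the share called lower 55.6%, against 51.8% and 24.9% of all features. The log2 fold change was -1.31 for TSR1 and -0.76 for ENP1, which ride on the precursor subunit, -1.08 for LTV1, its export adaptor, -1.05 for DIM1, the rRNA dimethylase, and -0.78 for the kinase gene RIO2. The kinase genes RIO1 and HRR25 rose, by 0.70 and 0.998, and NOB1, the nuclease that makes the end of 18S rRNA, was not called at 0.36 (SE 0.18).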

How the data were processed

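Per library the authors deposited whole-number read counts by gene. Tools named in the submitters' processing notes are FastQC, Subread and featureCounts, with the build sacCer3. Strand setting, handling of multiply mapped reads and versions are not given in these sources. The authors also deposited a normalised table on a log10 scale, used only as an alternative.

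Counts were tested with edgeR 4.0.16 in R 4.3.3 (quasi-likelihood F test, filterByExpr, TMM; 6197 features kept, 930 removed) and ratios with limma 3.58.1 on log2 of counts plus 0.5, the spread following the mean of the rarer copy. The threshold was an adjusted p of 0.05. SE was taken as log2 fold change over the square root of F, and 17.8% was the biological coefficient of variation. Paralog pairs were reciprocal best blastp 2.17.0 hits (e-value at most 1e-10, 40% identity, 70% coverage) or shared names. Positions and sequences come from R64. An exact permutation test of 2 against 2 libraries cannot go below p = 0.333. Intervals cover the spread between libraries.

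The genes and lists were chosen with earlier results of these data known. Values in every library are given for single-copy genes, the 8 pairs with the smallest p, the 4 largest and 4 smallest changes and RPS6. The fits were also run on simulated data in which only a small share of genes changed, unlike these data. No result here rests on that run. Alternatives were DESeq2 1.42.0, limma-voom, other scalings and filters, a replicate block, fits without each library and the authors' log10 table. Values of some genes within these rules are not reported here, and counts and fits include them.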

Additional observations from a re-analysis of the deposited data

How the results depend on the processing

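None of the 56 genes or 10 called pairs changed direction under the alternatives run, and among the 24 pairs 23 kept the sign of their ratio change without deletion library 1, the exception being a pair that was not called, while all 24 kept it under the others. The count of genes called lower was 56 under every alternative that kept all libraries, where 1455 to 2508 of all features were called lower. Without 1 wild-type library the genes named above lost the call, and fewer of all features were called lower. Summed per protein the count was 32 under every other scaling, test and block, and it was lower in at least 1 fit with 1 library left out. The median log2 fold change was -2.06 with upper quartile factors and -1.999 with library totals, which moved the median of all features to -0.41 and -0.35 and the share of higher calls from 51.9% to 30.7% and 33.6%. It was -1.91 to -1.47 with 1 library left out. The count of pairs whose copies responded differently was 4 to 16 with 1 library left out, 7 with the replicate block, 8 without a variance trend, 8 when the 61 pairs that gene names give were tested (7 of them among the 10), and 10 with a pseudocount of 5, the stricter filter or the copy by strain interaction of edgeR. Same-numbered libraries did not deviate together (correlation of deviations -0.07 over all features). This cannot settle whether they were handled together, which the labels do not say. With the replicate block 3 of the called pairs missed the threshold, among them RPS14 and RPS26 (adjusted p 0.0618 and 0.0605). Among single genes 776 of the values under an alternative kept their call and 8 lost it, and among the called pairs 82 kept it and 18 lost it. The lowest count of a member in any library was 162, and the effect of depth on the calls was not tested.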
